A study of Mus musculus with 3 samples.

Results

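The 10 genes described here, of the 31053 in the count files, encode enzymes and receptors of prostaglandin and leukotriene signaling. They were taken by symbol: *Ptgs1*, *Ptgs2*, *Ptges*, *Hpgds*, *Ptgis*, *Ptger2*, *Ptger4*, *Alox5*, *Alox5ap* and *Ltc4s*, and each had UMIs (unique molecular identifiers, 1 per captured transcript) in all 3 libraries. The cells came from day 5 masses of female CD-1 mice aged 6-8 weeks, implanted under the skin with Matrigel, a basement membrane gel, and were freed with dispase and run on the 10x Chromium. The Matrigel-only mice carried the gel alone and were given nothing. The Vehicle mice carried gel with rhBMP2, recombinant human BMP2 (a growth factor that drives cartilage and bone to form at ectopic sites), and were dosed orally with corn oil/DMSO. The Palo mice carried the same rhBMP2 gel and were dosed with Palovarotene, an agonist of the retinoic acid receptor gamma, at 4 mg/kg. Each group had 6 ectopic masses pooled in 1 library, so the spread between animals was not measured, no difference between groups has a replicate check and none was tested.

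Prostaglandins are made from arachidonic acid, which phospholipases free from membranes. The cyclooxygenases *Ptgs1* and *Ptgs2* turn it into an unstable intermediate, and terminal synthases then give prostaglandin E2 (*Ptges*), D2 (*Hpgds*) or prostacyclin (*Ptgis*). In the other branch, the 5-lipoxygenase *Alox5*, helped by its partner protein *Alox5ap*, makes leukotriene A4, and *Ltc4s* joins it to glutathione. Both families act on injured tissue and its leukocytes, and prostaglandin E2 is known for its part in bone repair.

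Levels are UMIs of a gene summed over a set of cells, per 1000000 UMIs of that set (CPM), with exact Poisson 95% intervals. Ratios of CPM carry exact conditional binomial 95% intervals. All intervals cover counting error only. A gene was called past 2-fold on log2(CPM + 1) when its mean over the libraries was at least 2 CPM. Stromal cells had at least 1% of UMIs from 5 matrix genes (*Col1a1*, *Col1a2*, *Col3a1*, *Dcn* and *Lum*), and macrophages had less than that and a UMI of *Csf1r* or *C1qa*. This gave 2085 stromal cells and 5812 macrophages in the Matrigel-only library, 1373 and 3253 in the Vehicle library, and 1184 and 5661 in the Palo library. Median UMIs per stromal cell were 9082, 17114 and 12955 in that order, against 3090, 3646 and 4254 per macrophage. Shares of cells with a UMI were therefore computed after thinning each cell to 3100 UMIs for stromal cells and 1400 for macrophages or for both classes together. Between 11 and 21 cell barcodes were shared by each pair of libraries.

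RNA of each class was also found in the other, so marker genes that the rule did not use were measured first. In the macrophages, 14 stromal markers were at a median of 0.943%, 1.45% and 0.545% of their stromal level in the Matrigel-only, Vehicle and Palo libraries. In the stromal cells, 12 leukocyte markers were at a median of 3.78%, 1.68% and 2.86% of their macrophage level, with 0 of the 12 absent. Their summed level in stromal cells was 882, 351 and 815 CPM. The ranges of single markers serve below as the level at which a gene of one class shows up in the other.

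Macrophages were higher for 6 of the members and stromal cells for 3, by over 2-fold in each of the 3 libraries. *Ptgs2*, *Ptges* and *Ptgis* were the stromal ones, and over all genes 17.6% were higher in stromal cells by that rule. *Hpgds*, *Ptger2*, *Ptger4*, *Alox5*, *Alox5ap* and *Ltc4s* were the macrophage ones, where 13.4% of all genes were. *Ptgs1* was 3.01, 1.62 and 2.93 times higher in stromal cells, past 2-fold in 2 of the 3 libraries. Stromal cells held 96.7%, 98.1% and 97.1% of all *Ptges* UMIs in the kept cells, and macrophages held 95.9%, 94.4% and 98.1% of the *Hpgds* UMIs.

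**Figure D1:**
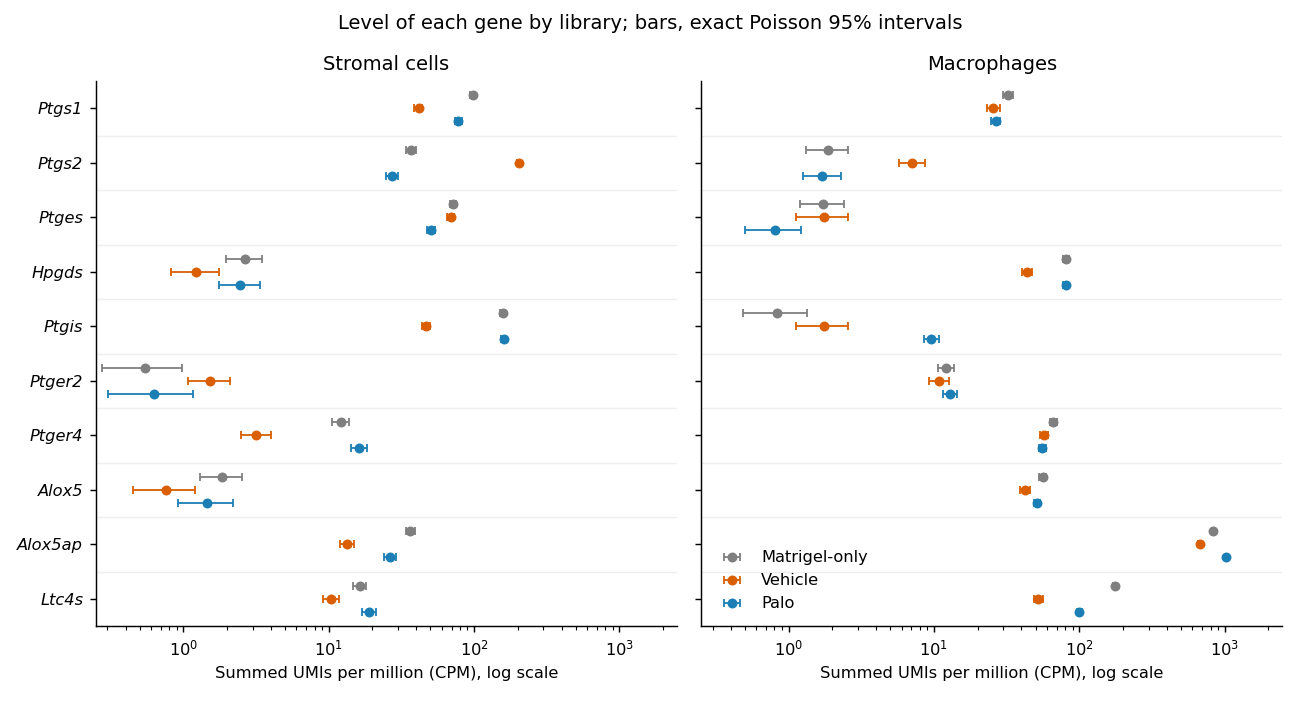
Level of each of the 10 genes (rows) in stromal cells (left) and macrophages (right), in CPM on a log axis. Points are single libraries, gray for Matrigel-only, orange for Vehicle and blue for Palo, and bars are exact Poisson 95% intervals. In stromal cells the Vehicle point stands apart for *Ptgs2* (203 CPM) and for *Ptgis* (46.8 CPM), while the Matrigel-only and Palo points of *Ptgis* (158 and 161 CPM) nearly coincide.

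In stromal cells 5 members differed by over 2-fold between Vehicle and Matrigel-only, and none did between Palo and Matrigel-only. In Vehicle over Matrigel-only, 1 of the 8 members tested was higher, beside 4.73% of 11765 genes, and 4 were lower, beside 9.88%. In Palo over Vehicle, 2 were higher, beside 6.83%, and 1 was lower, beside 4.84%. In Palo over Matrigel-only, 0 were higher, beside 0.680% of genes, and 0 lower, beside 2.01%, which is near the background. The 3 comparisons share libraries and are not independent of each other. The median log2 ratio of the 8 members was -0.96, 0.85 and -0.20 in these comparisons, against -0.05, 0.02 and -0.04 over all genes tested. *Alox5ap*, 1 of the 4 lower in Vehicle, and *Hpgds* both enter these medians. Both stood in stromal cells at the level of the leukocyte markers, as given below.

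*Ptgs2*, the inducible cyclooxygenase, was the member that was higher. Its stromal level was 36.8 CPM (34.2 to 39.6) in the Matrigel-only library, 203 CPM (197 to 208) in the Vehicle library and 27.3 CPM (24.8 to 30.1) in the Palo library. Vehicle stood far above the other two, whose levels were closer to each other. The ratio of Vehicle to Matrigel-only was 5.50 (5.09 to 5.95), that of Palo to Vehicle 0.135 (0.122 to 0.149) and that of Palo to Matrigel-only 0.743 (0.658 to 0.838). At 3100 UMIs per cell, 29.9% of Vehicle stromal cells (27.5 to 32.5) had a *Ptgs2* UMI, against 6.65% (5.56 to 7.87) in Matrigel-only and 6.52% (5.15 to 8.12) in Palo. Unthinned, the shares were 53.8%, 14.2% and 17.7%. Cells with a UMI also held more of them in the Vehicle library, with a mean of 6.47 UMIs, a median of 3 and a maximum of 81, against means of 2.48 in Matrigel-only and 2.06 in Palo. Vehicle stromal cells also had the highest depth per cell. The 74 cells with the most *Ptgs2* among the 738 positive Vehicle cells held 38.9% of its UMIs. The same fraction of positive cells held 40.1% in Matrigel-only (30 of 297 cells) and 33.3% in Palo (21 of 210).

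The *Ptgs2* gene lies on the plus strand of chromosome 1, positions 150100031 to 150108227 in GENCODE vM21 on mm10, with no other annotated gene in that span. Its promoter is shown because *Ptgs2* had the largest stromal ratio of the members. The 250 bases before the RefSeq start (GRCm38.p6, chr1:150099781-150100030, plus strand) read, with motif matches in capitals:
Ptgs2: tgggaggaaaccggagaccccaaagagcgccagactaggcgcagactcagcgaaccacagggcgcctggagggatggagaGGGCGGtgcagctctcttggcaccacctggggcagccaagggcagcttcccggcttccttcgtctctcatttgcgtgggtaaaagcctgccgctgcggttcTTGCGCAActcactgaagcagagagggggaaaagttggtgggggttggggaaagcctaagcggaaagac
The first match is a GC box (GGGCGG, 170 bases before the start) and the other the palindrome TTGCGCAA (69 bases before it), a form bound by C/EBP factors. On either strand, 32.7% of the 32851 promoters in the RefSeq table hold the first and 0.164% the other, which was added to the search after the sequence had been read. A TATA box (TATAAA), a cAMP response half-site (TGACG), the hypoxia response core ACGTG, the retinoid half-site AGGTCA and CCAAT were also searched. These letters are not in this window, and 12.4%, 17.8%, 16.6%, 14.0% and 33.8% of all promoters hold them. Bases outside the window, including those after the annotated start, were not searched, so the absence holds for these 250 bases only.

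The stromal class of the Vehicle library held cartilage transcripts, the 7 cartilage markers summing to 74.0, 4826 and 120 CPM in the 3 libraries. Within the class, *Ptgs2* was highest in the cells with cartilage transcripts, but the Vehicle level exceeded the others in every set that could be compared. Cells were divided, after the data had been seen, by *Col2a1* (type II collagen, at 2 or more UMIs), then *Acan* (aggrecan), then *Sox9* (the cartilage transcription factor), then *Pi16* (a fibroblast progenitor marker). In the Vehicle library *Ptgs2* was at 288 CPM (275 to 301) in 331 *Col2a1* cells, 190 CPM (181 to 200) in 466 *Acan* cells without it, and 166 CPM (157 to 176) in 376 cells with *Sox9* alone. The 79 *Pi16* cells had 55.3 CPM (41.3 to 72.5) and the 121 remaining cells 172 CPM (152 to 194). The first 2 sets held 0 and 1 cells in Matrigel-only and 0 and 4 in Palo, so they have no counterpart there. In cells with *Sox9* alone the level was 53.5 CPM in Matrigel-only and 30.2 CPM in Palo. In *Pi16* cells it was 20.9 and 14.3 CPM, and in the remaining cells 42.7 and 31.0 CPM. Each Vehicle interval lay above those of the same set in the other libraries.

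**Figure D2:**
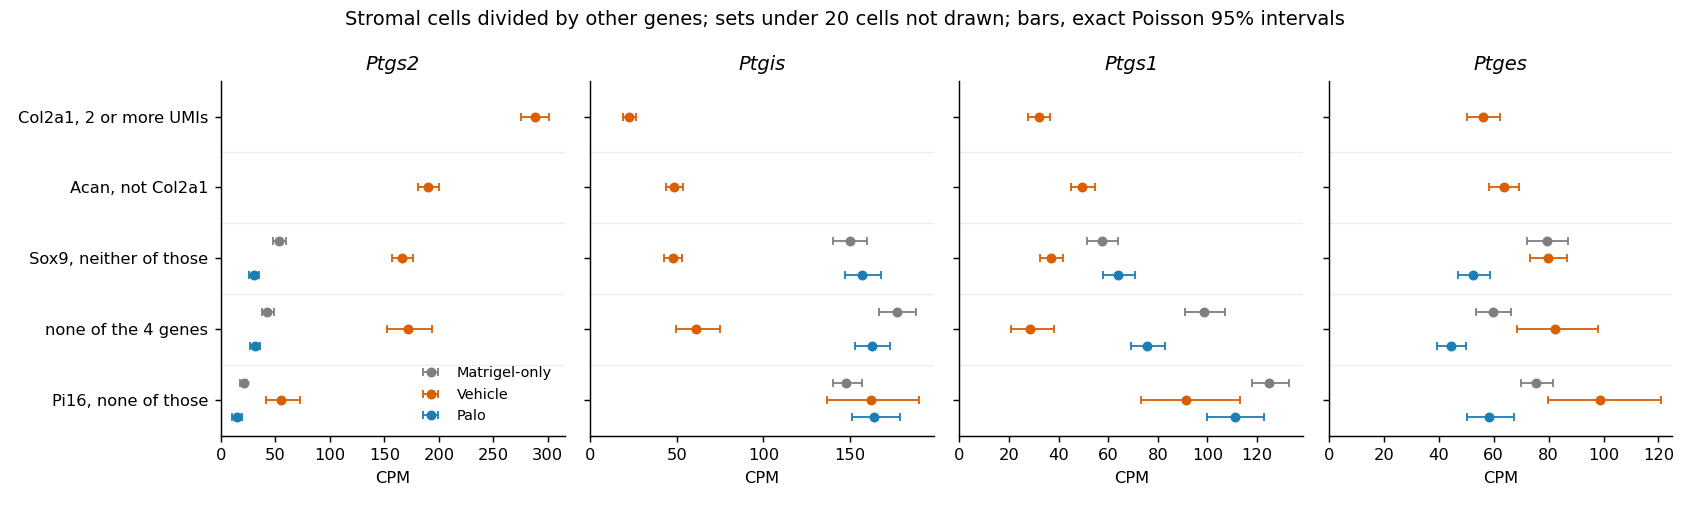
Levels of *Ptgs2*, *Ptgis*, *Ptgs1* and *Ptges* (panels, CPM, linear axes from 0) in stromal cells divided by *Col2a1*, *Acan*, *Sox9* and *Pi16* UMIs (rows). Colors are the libraries, bars exact Poisson 95% intervals, and sets under 20 cells are not drawn. For *Ptgs2* the orange Vehicle points run from 55.3 CPM in *Pi16* cells to 288 CPM in *Col2a1* cells, and for *Ptgis* they run the other way, from 162 to 22.5 CPM.

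*Ptgis*, the prostacyclin synthase (chromosome 2, 167191805 to 167240604, minus strand), showed the reverse pattern in stromal cells. It overlaps 2 noncoding transcripts of the other strand. Its level was 158 CPM (152 to 163) in the Matrigel-only library, 46.8 CPM (44.1 to 49.6) in Vehicle and 161 CPM (154 to 167) in Palo. Vehicle over Matrigel-only was 0.297 (0.277 to 0.318), Palo over Vehicle 3.43 (3.20 to 3.69), and Palo over Matrigel-only 1.02 (0.967 to 1.07). The share of cells with a UMI at 3100 UMIs was 34.1%, 12.1% and 34.8%, and unthinned 59.0%, 31.5% and 71.0%. In *Pi16* cells without *Col2a1*, *Acan* or *Sox9*, *Ptgis* was at 148 CPM (140 to 157), 162 CPM (137 to 190) and 164 CPM (151 to 179), with overlapping intervals. Over all *Pi16* cells without *Acan* or *Col2a1*, those with *Sox9* included, it was at 148 CPM (141 to 156), 125 CPM (108 to 143) and 172 CPM (160 to 185), with Vehicle the lowest and its interval below that of Palo. In cells with *Sox9* alone it was 150, 47.8 and 157 CPM, and in the cells with none of the 4 genes 177, 61.0 and 163 CPM. The Vehicle *Col2a1* cells had the lowest stromal level, 22.5 CPM (18.9 to 26.5). *Pi16* cells without *Col2a1*, *Acan* or *Sox9* were 1012 of the 2085 stromal cells in Matrigel-only, 79 of 1373 in Vehicle and 312 of 1184 in Palo. With *Sox9* cells included they numbered 1152, 116 and 368.

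*Ptgs1*, the constitutive cyclooxygenase (chromosome 2, 36230426 to 36252272, plus strand), was at 97.8, 41.5 and 78.1 CPM in stromal cells. The Vehicle level was 0.424 times (0.393 to 0.458) that of Matrigel-only, and Palo lay between, at 1.88 times (1.73 to 2.05) Vehicle and 0.798 times (0.743 to 0.857) Matrigel-only. The lower Vehicle level appeared in each set: 36.8 against 57.6 CPM of Matrigel-only with *Sox9* alone, 91.5 against 125 CPM in *Pi16* cells and 28.6 against 98.7 CPM in the remaining cells.

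*Ptges*, a synthase of prostaglandin E2 (chromosome 2, 30889471 to 30929863, minus strand), did not follow *Ptgs2* over the stromal class as a whole. Its stromal level was 71.9 CPM in the Matrigel-only library, 68.9 CPM in Vehicle and 50.6 CPM in Palo, with Vehicle over Matrigel-only at 0.958 (0.892 to 1.03) and Palo over Vehicle at 0.734 (0.674 to 0.799). In *Pi16* cells without *Acan* or *Col2a1* it was at 79.0 CPM (73.5 to 84.7), 106 CPM (90.9 to 124) and 60.3 CPM (53.0 to 68.2). In stromal cells with none of these genes it was at 65.2 CPM (60.3 to 70.3), 75.7 CPM (69.2 to 82.8) and 47.1 CPM (43.2 to 51.2). Vehicle was thus the highest in both sets, in the latter with an interval that overlapped that of Matrigel-only. Vehicle cells with *Acan* or *Col2a1* had 62.3 CPM. The share of stromal cells that had UMIs of both *Ptgs2* and *Ptges* at 3100 UMIs was 1.35%, 5.87% and 1.06%. The single shares at that depth were 6.65%, 29.9% and 6.52% for *Ptgs2* and 20.1%, 18.4% and 14.6% for *Ptges*. Of the Vehicle cells with *Ptgs2*, 60.1% also had *Ptges* before thinning, against 48.3% in Matrigel-only and 47.6% in Palo, libraries with shallower stromal cells. These shares were close to those of *Ptges* over all stromal cells of at least 3100 UMIs. Those were 57.7% in Vehicle, 46.6% in Matrigel-only and 44.9% in Palo, unthinned. The shares with both *Ptgs2* and *Ptgis* were 2.82%, 3.55% and 2.16%, and those with both *Ptgs1* and *Ptgis* 8.74%, 1.99% and 6.90%. Stromal cells with a *Ptgs2* UMI and a *Ptgis* UMI were 77.6% of the Matrigel-only *Ptgs2* cells, 32.6% of those in Vehicle and 77.1% of those in Palo, unthinned. Over all stromal cells of at least 3100 UMIs, *Ptgis* was found in 63.9%, 32.9% and 73.7%, unthinned.

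The prostaglandin E2 receptors *Ptger2* and *Ptger4* both signal through cAMP. *Ptger4* was at 12.1 CPM (10.6 to 13.7) in Matrigel-only stromal cells, 3.18 CPM (2.50 to 3.99) in Vehicle and 16.2 CPM (14.3 to 18.3) in Palo, on 243, 75 and 257 UMIs. Vehicle was thus the lowest, at 0.262 times (0.200 to 0.341) Matrigel-only, and Palo over Vehicle was 5.11 (3.93 to 6.70). The leukocyte markers moved the same way in stromal cells, 6 of the 12 being lower past 2-fold in Vehicle over Matrigel-only (median log2 ratio -1.09) and 5 higher in Palo over Vehicle. *Ptger4* was at 18.3%, 5.56% and 29.1% of its macrophage level, where the markers reached at most 5.04%, 2.12% and 4.02%. Stromal cells above a set share of leukocyte-marker UMIs were then removed, and those below it kept. The log2 ratios of *Ptger4* were then -1.53 for Vehicle over Matrigel-only and 2.11 for Palo over Vehicle. This step removes whole cells and not leukocyte RNA spread over the cells kept, and the part of such RNA was not tested. *Ptger2* had 11, 36 and 10 UMIs in stromal cells, 0.549, 1.53 and 0.632 CPM, under the minimum of 2 CPM, as was *Alox5*. The Vehicle level of *Ptger2* was 14.0% of its macrophage level, above the marker range, and those of the other libraries had intervals that overlapped it.

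*Ptger4* lies on the minus strand of chromosome 15, positions 5206661 to 5244187, and overlaps *Ttc33*, a protein-coding gene on the other strand, so reads could be told apart only by strand, whose use in counting is not given in the sources used here. Its promoter is shown because *Ptger4* was among the 3 members with the largest ratios past 2-fold over stromal cells and macrophages. The 250 bases before the start (GRCm38.p6, chr15:5244188-5244437, minus strand) read:
Ptger4: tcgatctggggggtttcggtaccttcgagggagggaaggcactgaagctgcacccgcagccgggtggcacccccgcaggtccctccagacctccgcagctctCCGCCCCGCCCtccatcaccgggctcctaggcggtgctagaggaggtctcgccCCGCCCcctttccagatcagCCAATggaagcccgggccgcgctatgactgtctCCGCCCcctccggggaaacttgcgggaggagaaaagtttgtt
The capitals mark 4 GC boxes in reverse orientation (CCGCCC), of which the pair 148 and 143 bases before the start share 1 base, and 1 CCAAT box 75 bases before it. The letters of the TATA box, the cAMP and retinoid sites, the hypoxia core and the C/EBP palindrome are not in this window on either strand. *Ptgis*, the remaining member of the 3 with the largest ratios, has no entry in the RefSeq table and is named only.

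Of the members with most UMIs in macrophages, *Alox5ap*, *Alox5* and *Hpgds* stood in stromal cells at the level of the leukocyte markers. *Alox5ap* was at 36.5, 13.4 and 26.5 CPM, or 4.37%, 1.99% and 2.57% of its macrophage level, within the marker range in every library. Its Vehicle over Matrigel-only ratio of 0.367 (0.321 to 0.420) passed 2-fold. Its log2 ratio of -1.38 became -0.57 once stromal cells above the set share of leukocyte-marker UMIs were removed. *Alox5* (37, 18 and 23 UMIs) and *Hpgds* (53, 29 and 39 UMIs) also had intervals that overlapped the marker range. *Ltc4s* was above it. Its stromal level of 16.3, 10.4 and 19.0 CPM was 9.27%, 19.9% and 19.0% of that in macrophages. In the Vehicle library *Ltc4s* ranged from 1.77 CPM in *Col2a1* cells (11 UMIs) to 31.8 CPM in cells with none of the 4 dividing genes (49 UMIs).

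**Figure D3:**
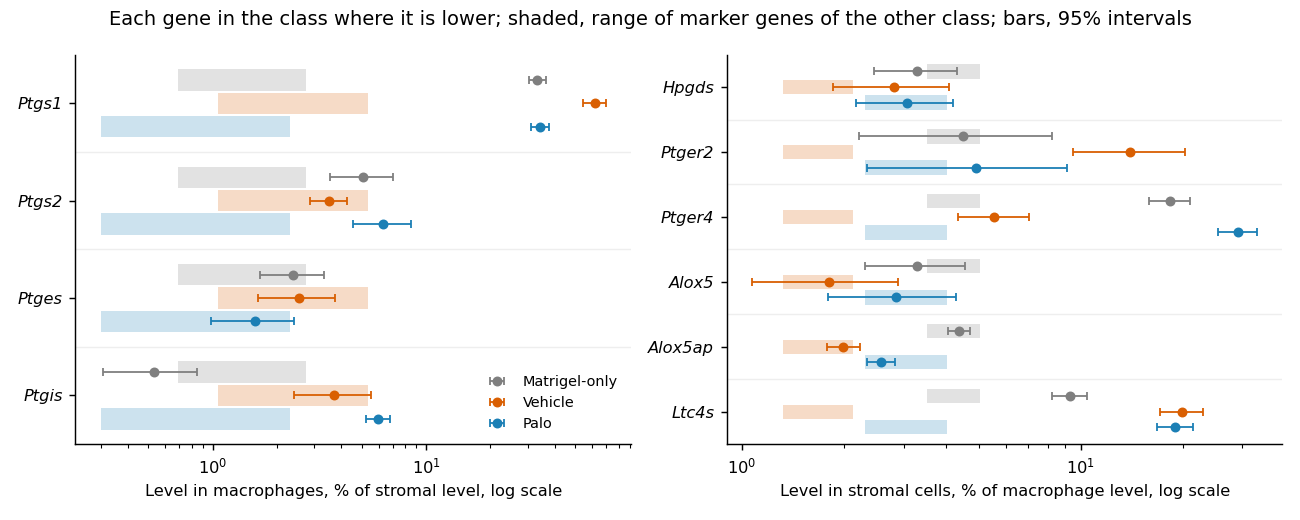
Level of each gene in the class where it was lower, as a percentage of its level in the other class, on log axes. Points are libraries with 95% binomial intervals, and shaded bars span the 14 stromal markers (left) or the 12 leukocyte markers (right) of the same library. *Ptgs1* (33.2% to 61.6%), *Ptger4* (5.56% to 29.1%) and *Ltc4s* (9.27% to 19.9%) lie to the right of the shading in all 3 libraries, and *Alox5ap* lies inside it.

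In macrophages at most 1 member passed 2-fold in each direction of each comparison. In Vehicle over Matrigel-only, 1 of the 9 members tested was higher, beside 3.96% of 10931 genes, and 1 was lower, beside 2.58%. In Palo over Vehicle, 1 was higher and 1 lower, beside 1.79% and 5.00% of genes. In Palo over Matrigel-only, 1 was higher, beside 0.823%, and 0 lower, beside 1.69%. The median over all genes was -0.16 on the log2 scale in both comparisons with Palo, and TMM scaling moved it to 0.03 and 0.01, with 2.88% of genes higher and 3.71% lower in Palo over Vehicle and 1.28% and 1.19% in Palo over Matrigel-only.

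*Ltc4s*, the leukotriene C4 synthase (chromosome 11, 50236461 to 50238616, minus strand, with the antisense gene *Gm26542* over it), was the member lower in Vehicle macrophages. Its level was 176 CPM (170 to 182) in Matrigel-only, 52.3 CPM (48.6 to 56.2) in Vehicle and 100 CPM (96.5 to 104) in Palo. The intervals were apart, with Vehicle at 0.297 times (0.274 to 0.322) Matrigel-only and Palo between, at 1.91 times (1.77 to 2.08) Vehicle and 0.569 times (0.542 to 0.598) Matrigel-only. At 1400 UMIs, 16.5%, 7.25% and 11.5% of macrophages had a UMI, against 1.95%, 1.21% and 2.26% of stromal cells at the same depth. Unthinned, the macrophage shares were 27.3%, 12.5% and 23.0%. The ratio of Vehicle to Matrigel-only was close to this in *Ms4a7*-positive (0.303) and *Ms4a7*-negative macrophages (0.301), where *Ms4a7* is a membrane protein gene that marks one part of the macrophages. Palo over Vehicle was 2.50 (2.24 to 2.80) in the positive and 1.39 (1.23 to 1.56) in the negative ones. The negative Palo set includes most of a small group of cells with *Alox15* and *Prg4* and high *Ltc4s*, described below. Their part in the ratio of 1.39 was not tested.

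Among *Ms4a7*-negative macrophages, *Ltc4s* was lowest in each library in the cells with *Mmp12* or *Itgax* and neither *Retnla* (a resistin-like protein of alternatively activated macrophages) nor *Hal* (histidine ammonia lyase). It was at 12, 17.2 and 9.32 CPM there, on 10 to 33 UMIs. In cells with *Retnla* or *Hal* it was at 250 CPM (238 to 262), 70.6 CPM (58.4 to 84.6) and 96.2 CPM (90.0 to 103), and in cells with none of the 4 genes at 133 CPM (116 to 152), 96.0 CPM (83.4 to 110) and 134 CPM (118 to 150). The *Retnla* or *Hal* cells were thus above the cells with none of the genes in Matrigel-only, below them in Palo, and below them in Vehicle with intervals that just overlapped. The cells with *Retnla* or *Hal* numbered 1839, 321 and 1733, fewest in the Vehicle library. *Ptgs1* was also lowest in *Mmp12* or *Itgax* cells, at 5.99, 9.39 and 7.30 CPM. It was at 59.0, 26.5 and 37.8 CPM in *Retnla* or *Hal* cells and at 31.6, 30.5 and 49.0 CPM in cells with none of the 4 genes, so the first of these sets was the higher in Matrigel-only and not in Vehicle or Palo. Of the 70 Palo macrophages with both *Alox15* and *Prg4*, described below, 3 had an *Ms4a7* UMI. These cells were high in *Ltc4s* and *Ptgs1*. Their part in the Palo order of the sets was not tested for either gene.

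*Hpgds*, the hematopoietic prostaglandin D synthase (chromosome 6, 65117293 to 65144908, minus strand), was the member that separated the macrophage sets. It was at 130 CPM in *Ms4a7*-positive and 19.7 CPM in *Ms4a7*-negative macrophages of Matrigel-only, at 69.1 and 5.92 CPM in Vehicle, and at 146 and 15.4 CPM in Palo. The ratios were 6.60 (5.65 to 7.75), 11.7 (8.25 to 17.0) and 9.49 (8.24 to 11.0). On log2(CPM + 1), *Hpgds* was the 1 member over 2-fold higher in positive cells in all 3 libraries, beside 2.49% of 11208 genes. On that scale 0 members were lower in all 3, beside 2.51%. The median UMIs per cell of the sets were 3090 and 3092 in Matrigel-only, 3684 and 3577 in Vehicle, and 4010 and 4624 in Palo. Over all macrophages *Hpgds* was at 80.6, 43.8 and 80.5 CPM, with Vehicle at 0.543 times (0.495 to 0.596) Matrigel-only and Palo at 0.998 times (0.936 to 1.06) Matrigel-only. Under TMM scaling Palo over Vehicle passed 2-fold for *Hpgds* and *Ltc4s*, with log2 ratios of 1.06 and 1.12 against 0.86 and 0.92.

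**Figure D4:**
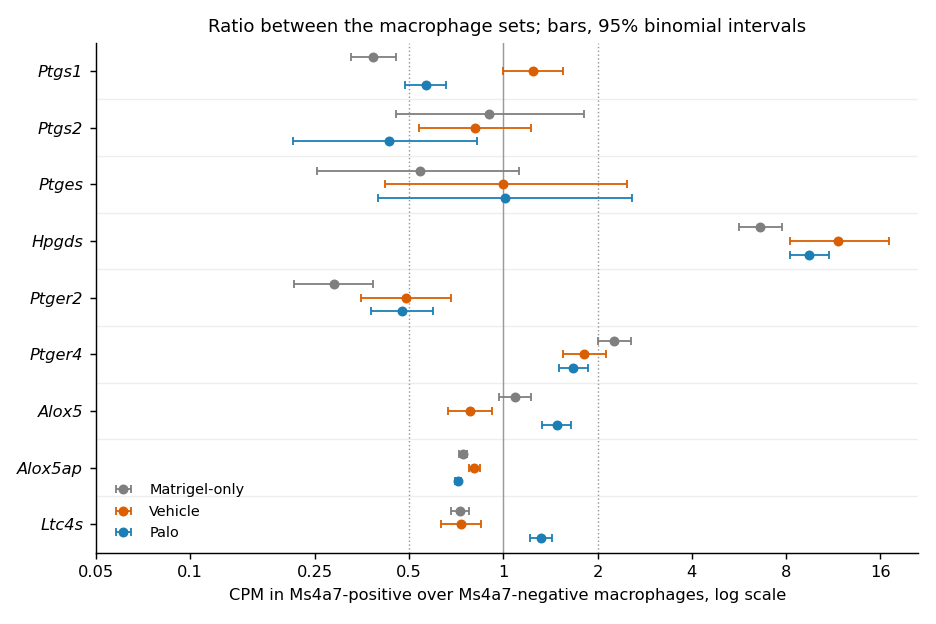
Ratio of the level in *Ms4a7*-positive over *Ms4a7*-negative macrophages on a log axis, with dotted lines at 2-fold. Points are libraries and bars 95% binomial intervals, and *Ptgis* is left out because Matrigel-only had only 17 UMIs over both sets. *Hpgds* lies at 6.60 to 11.7, *Ptger4* at 1.67 to 2.26 and *Ptger2* at 0.289 to 0.489, while *Ptgs1* is on either side of 1.

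The E2 receptors divided the macrophage sets in opposite directions. *Ptger4* was higher in *Ms4a7*-positive cells, at 88.3 against 39.1 CPM in Matrigel-only, 69.6 against 38.5 CPM in Vehicle and 70.0 against 41.8 CPM in Palo. *Ptger2* was lower there, at 5.78 against 20 CPM, 7.66 against 15.7 CPM and 8.29 against 17.4 CPM. The *Ptger4* ratios were 2.26, 1.81 and 1.67 and those of *Ptger2* 0.289, 0.489 and 0.475, so intervals did not cross 1 in any library. On log2(CPM + 1), the scale of the calls, *Ptger2* was at -1.63, -0.95 and -0.99, past 2-fold in Matrigel-only alone. Between libraries the receptors differed little over all macrophages, at 66.2, 57.2 and 55.8 CPM for *Ptger4* and 12.2, 10.9 and 12.9 CPM for *Ptger2*. Within *Ms4a7*-negative cells, *Ptger2* was at 23.3, 22.3 and 20.8 CPM with *Retnla* or *Hal*, and at 11.5, 11.5 and 11.4 CPM in cells with none of the 4 dividing genes.

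*Alox5ap* was found in most macrophages, and it and *Alox5* stayed within 2-fold between libraries. *Alox5ap* was at 834, 672 and 1030 CPM, and at 1400 UMIs 64.4%, 58.0% and 70.4% of macrophages had a UMI, against 3.77%, 1.66% and 2.87% of stromal cells at that depth. Palo was the highest, at 1.53 times Vehicle and 1.24 times Matrigel-only. *Alox5* was at 56.2, 42.1 and 51.2 CPM, in 7.13%, 6.01% and 6.61% of macrophages and in 0.231%, 0.104% and 0.155% of stromal cells. Of the macrophages of at least 1400 UMIs with an *Alox5* UMI, 92.2%, 94.9% and 96.3% had *Alox5ap*, unthinned. Over all macrophages of at least 1400 UMIs, *Alox5ap* was found in 86.4%, 84.0% and 92.6%, unthinned. *Ltc4s* was found in 40.0%, 30.6% and 37.8% of those with *Alox5*. Its unthinned shares over macrophages of all depths were 27.3%, 12.5% and 23.0%. In Vehicle over Matrigel-only, *Alox5* was at 0.749 times (0.677 to 0.827). In *Ms4a7*-positive over *Ms4a7*-negative cells *Alox5ap* was lower in each library, with ratios of 0.742, 0.807 and 0.717, while *Alox5* had no common direction (1.09, 0.781 and 1.48).

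*Ptgs1* in macrophages was at 32.5, 25.6 and 26.7 CPM, 33.2% to 61.6% of its stromal level and far above the 5.36% that any stromal marker reached. In *Ms4a7*-negative cells it was at 49.2, 22.3 and 34.0 CPM, and in *Ms4a7*-positive cells at 19.0, 27.7 and 19.2 CPM. Vehicle over Matrigel-only was therefore 0.453 (0.369 to 0.553) in the negative and 1.46 (1.21 to 1.77) in the positive set.

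*Ptges* was within the range of the stromal markers in macrophages of each library, and *Ptgs2* only in those of Vehicle. *Ptgs2* had 38, 102 and 47 UMIs in macrophages, or 1.87, 7.11 and 1.71 CPM. Its Vehicle over Matrigel-only ratio of 3.81 (2.60 to 5.68) passed 2-fold, as did Palo over Vehicle at 0.241 (0.167 to 0.344). The Vehicle level was 3.51% (2.85% to 4.27%) of the stromal one. This was within the 1.06% to 5.36% of the stromal markers, though above their median of 1.45%. The levels of Matrigel-only and Palo, 5.07% and 6.26%, were above the marker ranges of at most 2.74% and 2.30%. The part of stromal RNA in these levels was not tested. Other markers moved with it in macrophages. The 7 cartilage markers summed to 4.57, 65.1 and 3.53 CPM, with 5 of the 5 tested higher in Vehicle over Matrigel-only and 5 lower in Palo over Vehicle, and 4, 0 and 3 of the 7 at 0. The 9 T and NK cell markers summed to 5.21, 59.0 and 4.34 CPM (3 of 3 higher, then 3 lower), and the 7 neutrophil markers to 71.0, 128 and 40.3 CPM (4 of 5 higher, then 5 lower), with none at 0. The part of the cartilage markers in the level of *Ptgs2* was not tested. With cells that carried markers of neutrophils, basophils, dendritic or T and NK cells left out, the log2 ratio of *Ptgs2* was 1.49. It was 1.40 without macrophages above a set share of UMIs of the 5 matrix genes, with those below it kept. *Ptges* had 35, 25 and 22 UMIs and was within the stromal range in each library.

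*Ptgis*, also a stromal enzyme, was carried by macrophages of the Palo library. It had 17 UMIs in Matrigel-only macrophages, 25 in Vehicle and 264 in Palo, or 0.835, 1.74 and 9.62 CPM. Palo over Matrigel-only was 11.5 (7.06 to 20.1) and Palo over Vehicle 5.52 (3.66 to 8.69). The Palo level was 5.99% of the stromal one, where the stromal markers reached at most 2.30%. The UMIs lay in 85 cells with a mean of 3.11 each, and the *Ms4a7*-negative set had 18.1 CPM against 1.03 CPM in the positive set.

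Most of these UMIs came from few cells. Divided after the data had been seen, 70 of the 5661 Palo macrophages had UMIs of both *Alox15*, a lipoxygenase, and *Prg4*, lubricin. They held 239 of the 264 *Ptgis* UMIs (90.5%), at 728 CPM (639 to 826), above the stromal 161 CPM, and 62 of the 70 had a *Ptgis* UMI. Their stromal markers summed to 104 CPM against 124 CPM in the other Palo macrophages and 23144 CPM in stromal cells, and their leukocyte markers to 44059 CPM. *Adgre1* was at 1413 CPM, *F5* at 1605 CPM, *Selp* at 923 CPM and *Gata6* at 152 CPM, against 559, 4.46, 0.516 and 0.258 CPM in the other Palo macrophages. The same cells had *Ptgs1* at 369 CPM and *Ltc4s* at 935 CPM, and 3 of the 70 had an *Ms4a7* UMI. The Vehicle library held 3 such cells, with 12 of its 25 *Ptgis* UMIs, and Matrigel-only 0. In macrophages with neither *Alox15* nor *Prg4*, *Ptgis* was at 0.794, 0.934 and 0.903 CPM, and *Ltc4s* at 174, 53.0 and 91.3 CPM. With 1 library per group, treatment and library cannot be told apart for these cells.

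**Figure D5:**
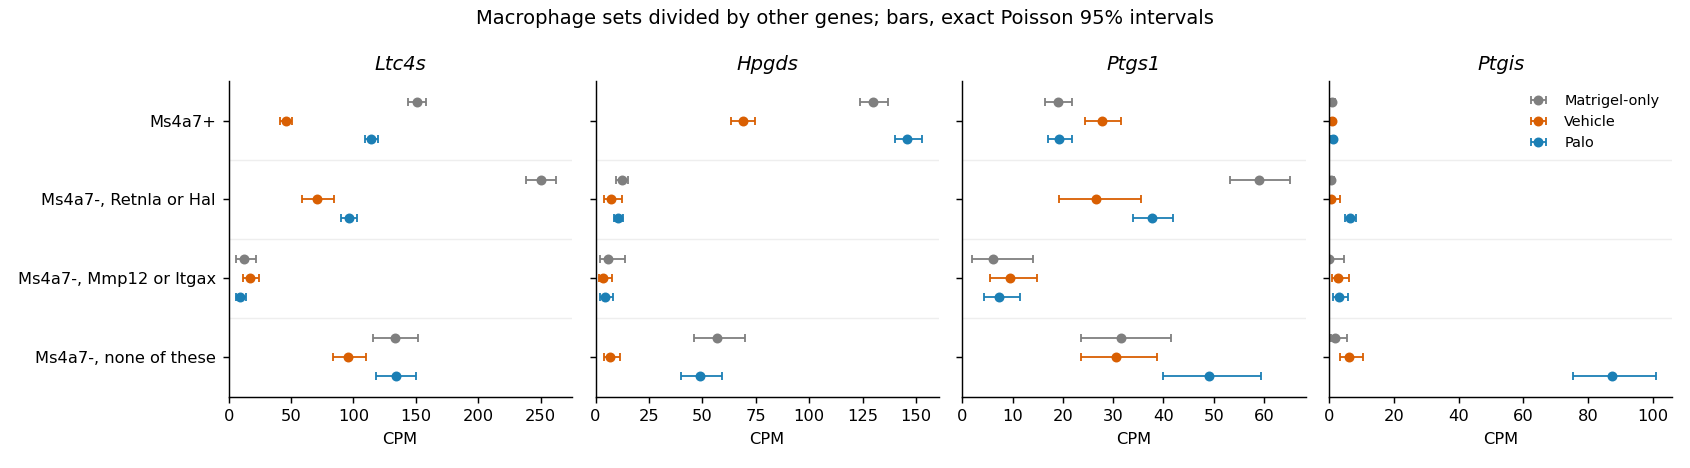
Levels of *Ltc4s*, *Hpgds*, *Ptgs1* and *Ptgis* (panels, CPM, linear axes from 0) in *Ms4a7*-positive macrophages and in *Ms4a7*-negative macrophages divided by *Retnla* or *Hal* and by *Mmp12* or *Itgax* (rows). Colors are the libraries and bars exact Poisson 95% intervals. *Ltc4s* is highest in the Matrigel-only *Retnla* or *Hal* cells (250 CPM), *Hpgds* in the *Ms4a7*-positive cells, and *Ptgis* in the Palo cells with none of the 4 dividing genes (87.5 CPM).

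Of 55 further genes of these pathways, 28 were tested in stromal cells and 27 in macrophages. In stromal cells 0 were higher and 8 lower in Vehicle over Matrigel-only, beside 4.73% and 9.88% of all genes, and 7 higher and 1 lower in Palo over Vehicle, beside 6.83% and 4.84%. In Palo over Matrigel-only, 1 was higher and 1 lower, beside 0.680% and 2.01%. The largest difference was that of *Akr1c18*, an aldo-keto reductase of the prostaglandin F and progesterone pathways, at 169, 12 and 108 CPM. *Dpep1*, a dipeptidase that trims leukotriene D4, was at 120, 18.4 and 59.3 CPM. The prostacyclin receptor *Ptgir* was at 8.13, 1.31 and 7.26 CPM, and the prostaglandin transporter *Slco2a1* at 10.7, 4.20 and 29.1 CPM. *Cysltr1*, *Tbxas1* and *Pla2g7* were also among the 8 lower genes and were higher in macrophages, where *Cysltr1* was at 201, 170 and 153 CPM against 7.18, 1.82 and 4.74 CPM in stromal cells. The leukocyte markers also were lowest in Vehicle stromal cells, summing to 882, 351 and 815 CPM. The part of macrophage RNA in the stromal levels of these genes, and so in the count of 8, was not tested. *Ptger3*, a further prostaglandin E2 receptor, was the eighth, at 4.34, 1.19 and 4.42 CPM. *Pla2g4a*, the cytosolic phospholipase that frees arachidonic acid, was at 44.1, 82.5 and 40.3 CPM, and was the 1 gene lower in Palo over Vehicle.

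In macrophages 1 of the 27 was higher and 1 lower in Vehicle over Matrigel-only, beside 3.96% and 2.58% of all genes, which is near the background. In Palo over Vehicle 3 were higher and 1 lower, beside 1.79% and 5.00%, and in Palo over Matrigel-only 1 higher and 3 lower, beside 0.823% and 1.69%. *Alox15* was among the higher genes in each comparison, at 1.82, 28.8 and 71.0 CPM, and *Hpgd*, which inactivates prostaglandins, was so in Palo over Vehicle, at 8.94, 5.09 and 12.5 CPM. *Akr1c18* was at 6.78, 0.209 and 2.40 CPM, on 3 UMIs in Vehicle. *Cyp4f18*, which inactivates leukotriene B4, was at 13.2, 24.5 and 3.43 CPM. *Ggt5*, which converts leukotriene C4 to D4, was at 59.0, 33.2 and 22.1 CPM. *Cysltr1*, the cysteinyl leukotriene receptor, and *Pla2g7* (205, 147 and 225 CPM), a phospholipase that breaks down platelet activating factor, stayed within 2-fold.

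Over 12 points, made of stromal cells, both macrophage sets and the remaining cells in the 3 libraries, the genes whose log2(CPM + 1) was most like that of a member were found among 8894 genes. *Ptgs2* was most like *Fmod* (r = 0.978), *C1qtnf3* (0.972) and *Sec11a* (0.970), *Ptgis* like *Wnt2* (0.966), *Lclat1* (0.942) and *Ltbp1* (0.926), and *Ptges* like *Col6a3* (0.990). *Hpgds* was most like *Dcxr* (0.984), *Alox5* like *Lcp2* (0.992), *Alox5ap* like *Cyth4* (0.998), *Ltc4s* like *Idh3b* (0.965) and *Ptgs1* like *Rassf8* (0.919). *Ptger4* was most like *Rufy1* (0.975) and *Ptger2* like *Gpx1* (0.978). The points share libraries and cell classes, so these values describe the likeness and carry no test.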

How the data were processed

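RNA of single cells was read from 3 droplet libraries. The deposited files hold raw UMI counts per gene and barcode, which the authors made with Cell Ranger 3.0.2 on the mm10 genome. Their later steps in Seurat 3 are not in these values. The libraries held 44252421 (Matrigel-only), 46317250 (Vehicle) and 46901673 (Palo) UMIs on 9249, 6065 and 7905 barcodes, of which 8728, 5478 and 7297 passed the limits of 200 to 6000 genes and at most 5% mitochondrial UMIs. The upper limit was the only treatment of doublets, and no doublet caller was run. Classes came from thresholds on UMIs, not from clustering, and cells of neither class numbered 831, 852 and 452. Shares were thinned by the hypergeometric expectation, and shallower cells were left out. Sums and intervals were computed in Python 3.11.15 (pandas 2.3.3, numpy 2.4.6, scipy 1.17.1), TMM factors in edgeR 4.0.16 under R 4.3.3, and plots in matplotlib 3.10.9. The calculations were tested on simulated data. The members, gene lists and sets were chosen with earlier results of these data known. All 10 members are named. Of the wider lists, genes past 2-fold were named, up to 8 per comparison, with the most expressed gene of some lists. Promoters are those of the members with the largest ratios, and 8 of 10 members matched the RefSeq table. There were 14 alternatives planned. 1 gate without *Alox15* or *Prg4* cells, and the divisions by *Col2a1*, *Acan*, *Sox9*, *Alox15* and *Prg4*, were added after the data were seen. Whether counting used strand is not given in the sources used here. Samples were mapped by GEO's treatment labels.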

Additional observations from a re-analysis of the deposited data

Results flagged for a closer look

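*Ptgis* differed in direction between the classes in Vehicle over Matrigel-only. The ratio was 0.297 in stromal cells and 2.09 in macrophages. The macrophage value rests on 17 and 25 UMIs, and 12 of the 25 lay in 3 cells with *Alox15* and *Prg4*. *Ptgs1* did so between the macrophage sets, with a ratio of 1.46 in *Ms4a7*-positive and 0.453 in *Ms4a7*-negative macrophages. Neither difference was tested, since each group is 1 library.

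Some sets of cells of neither class held members at levels above those of the stromal cells and macrophages. The 81 Vehicle cells with *Mcpt8*, a basophil protease gene, had *Alox5* at 422 CPM on 69 UMIs and *Alox5ap* at 1710 CPM. The 54 Vehicle cells with at least 1% of UMIs from *S100a8* and *S100a9*, neutrophil genes, had *Ptgs2* at 386 CPM, on 15 UMIs in 8 cells, at a median depth of 664 UMIs per cell. The 77 Matrigel-only cells with T and NK cell transcripts had *Ptger4* at 158 CPM (96.4 to 244) on 20 UMIs. The 251 Vehicle cells of that kind had 57.1 CPM (40.0 to 79.0), beside 57.2 CPM in Vehicle macrophages, and the 65 Palo cells 82.4 CPM (43.9 to 141), whose interval held the 55.8 CPM of Palo macrophages. The first 2 sets held 1 *Mcpt8* cell and 1 *S100a8* and *S100a9* cell in Matrigel-only, and 0 and 10 in Palo.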

How the results depend on the processing

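Of 76 recomputed counts of members past 2-fold, 66 stayed within 1.5 times the reported count. In macrophages, Palo over Vehicle had 4 members under TMM scaling, 1 with a pseudocount of 5 CPM, 0 with a minimum of 5 CPM and 1 without *Alox15* or *Prg4* cells, in place of 2. Of all genes, 2.88% were higher and 3.71% lower under TMM scaling, and 0.814% and 2.95% with the pseudocount. The shares were 1.57% and 4.25% at the minimum of 5 CPM and 1.67% and 5.07% without *Alox15* or *Prg4* cells, against 1.79% and 5.00%. Palo over Matrigel-only had 2 with a mitochondrial limit of 10%, 0 at 5 CPM and 0 without *Alox15* or *Prg4* cells, in place of 1. Of all genes, 0.820% were higher and 2.01% lower with the mitochondrial limit, and 0.733% and 1.31% at 5 CPM. Without *Alox15* or *Prg4* cells the shares were 0.687% and 1.71%, against 0.823% and 1.69%. Vehicle over Matrigel-only had 1 with the pseudocount of 5 CPM and 1 at the minimum of 5 CPM, in place of 2. Of all genes, 2.51% were higher and 1.12% lower with that pseudocount and 3.50% and 2.23% at that minimum, against 3.96% and 2.58%. Between the *Ms4a7* sets there were 2 when *Ms4a7* needed 2 UMIs, in place of 1, and the share over all genes at that setting is not given here. The *Ptgis* log2 ratio of Palo over Vehicle in macrophages turned from 1.95 to -0.02 without *Alox15* or *Prg4* cells, an alternative added after the data were seen. Among 630 recomputed member ratios between libraries, 566 lay within the interval of the reported value. The 630 include alternatives that changed only the minimum CPM, which cannot move a ratio, so part of this count was fixed in advance. No paired analysis was possible because each group has 1 library, and no library could be left out for the same reason. Depth limits the members under about 50 UMIs in a class.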
